A study of Homo sapiens with 6 samples.

Results

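Long intergenic non-coding RNA (lincRNA) genes were followed in 6 RNA-seq libraries of HCT116, an established human colorectal carcinoma cell line. In 3 libraries the cells had received auxin for 16 h, and the other 3 libraries came from DMSO control cells, DMSO being the solvent. Each group holds biological replicates numbered 1 to 3. The genes described here are those of GENCODE 29 type lincRNA with at least 10 expected counts in at least 3 libraries, leaving out MALAT1, NEAT1, BX470102.2 and every symbol that starts with SNHG. This gave 1365 genes of 7635 annotated lincRNA genes and of 58780 genes in the tables, after 10 genes were left out by symbol. Auxin is a plant hormone that makes cells with the matching receptor degrade a degron-tagged protein, but the labels name neither a tagged protein nor a clone. The comparison is therefore between auxin-treated and DMSO-treated cells of 1 line, and a response to auxin itself cannot be told apart from the loss of a tagged protein.

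A lincRNA is a transcript longer than the small RNA classes, without a known protein product, from a gene that lies between protein-coding genes. Most are transcribed by RNA polymerase II, many are capped and spliced from a few exons, and they are known for low levels and for strong differences between cell types. Some act in the nucleus near their own site of transcription, some act in the cytoplasm by binding proteins or small RNAs, and for most no function is known. A transcript annotated just downstream of another gene can be a separate unit or can be read as part of transcription that runs past the end of that gene, and short-read counts over the annotated exons do not separate these cases.

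The libraries held 234035407 to 625892507 expected counts in all, replicate 1 of each group being the deepest. Epithelial markers were present in every library, with EPCAM at 213 to 298 TPM, the deposited measure of abundance per transcript length scaled to a fixed total, whereas the leukocyte markers PTPRC and CD3E were at 0 and the fibroblast marker COL1A1 was at 0.54 to 2.61 TPM. Of the 1365 lincRNA genes, 991 had at least 10 counts in every library, and 10 reached 3 libraries through 1 group alone (9 through auxin, 1 through DMSO). The 126 annotated lincRNA genes with exactly 3 such libraries had a median of 0.0314 CPM (counts scaled to a common library total), against 0.0222 CPM for the 215 genes with exactly 2. Levels are relative to each library, so a change in RNA per cell and a change in the rest of the RNA pool cannot be told apart.

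The sequences of 4 promoters and 7 mature microRNAs are shown because they belong to genes that the results below turn on. The promoters are RefSeq windows of 300 bases on GRCh38.p14, from 250 before to 50 after the start, written in the direction of transcription. They lie at chr11:568408-568707 (MIR210HG, minus strand), chr7:1742261-1742560 (ELFN1-AS1, minus strand), chr7:1569823-1570122 (PSMG3-AS1, plus strand) and chr20:63102270-63102569 (HAR1B, minus strand). Capitals mark every match, on either strand, to the TATA box TATAAA, the box named after its letters CCAAT, the GC box GGGCGG, the E-box CACGTG or the AP-1 motif TGACTCA. MIR210HG and ELFN1-AS1 were lower after auxin, and PSMG3-AS1 and HAR1B were higher.
MIR210HG: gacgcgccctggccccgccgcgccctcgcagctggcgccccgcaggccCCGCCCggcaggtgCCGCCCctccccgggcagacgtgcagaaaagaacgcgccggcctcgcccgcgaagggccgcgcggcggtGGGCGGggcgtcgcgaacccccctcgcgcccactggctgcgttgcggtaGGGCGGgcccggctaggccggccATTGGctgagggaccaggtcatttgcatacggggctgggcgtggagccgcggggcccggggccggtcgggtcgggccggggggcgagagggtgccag
ELFN1-AS1: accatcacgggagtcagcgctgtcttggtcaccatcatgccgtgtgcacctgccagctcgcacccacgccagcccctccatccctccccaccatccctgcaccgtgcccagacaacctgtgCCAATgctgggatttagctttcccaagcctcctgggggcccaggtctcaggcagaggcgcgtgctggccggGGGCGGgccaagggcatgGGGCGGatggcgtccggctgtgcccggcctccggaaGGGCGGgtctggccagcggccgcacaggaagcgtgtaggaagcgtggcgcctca
PSMG3-AS1: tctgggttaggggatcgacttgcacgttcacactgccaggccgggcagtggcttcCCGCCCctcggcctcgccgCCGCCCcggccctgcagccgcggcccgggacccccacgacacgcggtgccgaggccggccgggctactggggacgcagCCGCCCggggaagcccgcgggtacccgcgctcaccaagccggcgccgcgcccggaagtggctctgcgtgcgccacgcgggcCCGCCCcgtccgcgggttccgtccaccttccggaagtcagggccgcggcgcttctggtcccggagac
HAR1B: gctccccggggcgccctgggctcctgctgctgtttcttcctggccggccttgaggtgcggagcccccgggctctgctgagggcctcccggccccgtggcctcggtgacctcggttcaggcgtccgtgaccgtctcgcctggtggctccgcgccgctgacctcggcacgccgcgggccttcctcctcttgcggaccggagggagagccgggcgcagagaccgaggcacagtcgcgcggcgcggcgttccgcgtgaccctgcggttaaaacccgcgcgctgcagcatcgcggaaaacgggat
MIR210HG and ELFN1-AS1 each held a CCAAT match, read as ATTGG on the printed strand of the first, and several GGGCGG matches. PSMG3-AS1 held GGGCGG matches alone, printed as their reverse complement, and HAR1B held none of the motifs. A match describes letters in the window and says nothing of binding.

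The microRNAs lie within lincRNA genes on the same strand, and the letters are RefSeq's mature sequences with the seed, bases 2 to 8, in capitals. They stand for the called host genes MIR210HG, AC016831.6 and LINC-PINT, AC048341.1, MIR193BHG and FTX.
hsa-miR-210-3p: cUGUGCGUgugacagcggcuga
hsa-miR-29a-3p: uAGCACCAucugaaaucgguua
hsa-miR-29b-3p: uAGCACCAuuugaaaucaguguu
hsa-let-7i-5p: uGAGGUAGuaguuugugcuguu
hsa-miR-193b-3p: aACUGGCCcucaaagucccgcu
hsa-miR-365a-3p: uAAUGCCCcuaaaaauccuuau
hsa-miR-374b-5p: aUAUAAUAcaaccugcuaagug
The miR-29a-3p and miR-29b-3p sequences share the seed AGCACCA, and the other 5 have a seed each. The libraries measured the host transcripts, and no mature microRNA was measured.

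The lincRNA genes were weakly expressed, with a median of 0.173 CPM, and a few of them carried much of the signal. The 10 most abundant held 44.1% of the summed level, NORAD alone held 17%, and 222 of 1365 genes reached 1 CPM. Summed over all 1365 genes, the level was 2091, 2135 and 1945 CPM in the DMSO libraries and 2708, 2519 and 2459 CPM in the auxin libraries. Every auxin library was above every DMSO library, with means of 2057 ± 99.7 CPM under DMSO and 2562 ± 130 CPM under auxin (SD, n = 3).

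More lincRNA genes were called higher than lower after auxin. A gene was called when edgeR's quasi-likelihood test gave it a Benjamini-Hochberg adjusted p below 0.05, the adjustment covering all 19725 genes tested, of which 52.3% were called. Among the 1281 lincRNA genes that passed the low-count filter of that test, 326 (25.4%) were higher and 128 (9.99%) lower, and the other 84 were not tested. Over all genes tested, 25.4% were higher and 26.9% lower, and over 14154 protein-coding genes 27.8% and 33.4%. In this fit the share called higher was that of all genes, and the share called lower was smaller. With replicate numbers as a block, 415 lincRNA genes (32.4%) were higher and 192 (15%) lower, below the shares of all genes, 35.5% and 34.4%, in both directions. The median log2 fold change was 0.18 (quartiles -0.28 to 0.74) for the lincRNA genes, 0.02 for all genes and -0.01 for protein-coding genes. This is not particular to lincRNA genes: 1389 genes of the antisense type had a median of 0.18, with 25% higher and 12.9% lower. Genes that met the count rule through 1 group alone were kept in these counts where tested, and the rule itself favours 1 direction for them. With 10 counts required in every library, 28.4% of 991 lincRNA genes were higher and 10.2% lower, against 26.9% and 28.6% of all genes.

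Changes of at least 2-fold were also mostly increases. In addition to the call, 202 of 1281 lincRNA genes were at least 2-fold higher and 78 at least 2-fold lower. Of all 19725 genes tested, 1292 (6.55%) and 2627 (13.3%) were. At least 4-fold, 38 lincRNA genes were higher and 12 lower, where 246 (1.25%) and 967 (4.9%) of all genes were. The groups did not overlap in CPM for 408 lincRNA genes in which auxin was higher and 195 in which it was lower, 47.1% of those tested, where 60.3% of all genes did not overlap. Called shares depend on level, so the same was read within 3 bands that split the lincRNA genes evenly by level. In the high band, above 0.394 CPM, 35.4% of lincRNA genes were higher and 13.3% lower, against 28.7% and 35.7% of protein-coding genes above that level. That band has no upper bound and holds 12404 of the 14154 protein-coding genes, so levels are not matched within it. In the middle band 24.8% of lincRNA genes were higher and 10.3% lower, against 23% and 22.5% of protein-coding genes. In the low band, below 0.108 CPM, the shares were 16.2% and 6.32% of lincRNA genes, against 19.6% and 10.8% of protein-coding genes. Median log2 fold changes of lincRNA and protein-coding genes were 0.18 and 0.17 in the low band and 0.16 and 0.10 in the middle band. They were 0.19 and -0.02 in the high band, so the difference in medians was mainly that of the band without an upper bound. With upper-quartile scaling the median of all genes moved from 0.02 to 0.15 and that of lincRNA genes from 0.18 to 0.30, with 376 higher and 96 lower. Over all genes that scaling moved the increases from 48.5% to 59.7% of the calls, and on the deposited TPM values, as log2(TPM + 0.1), they were 24%. With limma on those values 133 lincRNA genes were higher and 74 lower, and the median was 0.00 for lincRNA genes and -0.10 for all genes. Scaled by library size alone, the medians were 0.09 and -0.06. The lincRNA median of 0.18 also rested on single libraries: it was 0.07 without auxin replicate 1, 0.12 without DMSO replicate 3 and 0.27 without DMSO replicate 1.

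The largest increase, at a mean of at least 0.5 CPM, was in LINC02019, a 2-exon gene on the plus strand of chromosome 3 (GRCh38, chr3:50669989-50672048). It measured 0.262, 0.34 and 0.269 CPM under DMSO and 5.07, 3.14 and 3.07 CPM after auxin, so the groups were far apart, with replicate 1 the highest of the auxin libraries. Its log2 fold change was 3.70 (SE 0.25, adjusted p = 3.17e-05). The nearest same-strand gene end upstream, 20.7 kb away, is that of MAPKAPK3, a kinase activated by p38 MAP kinase, which went the other way, from 105 ± 4.95 to 29.9 ± 1.68 CPM (SD, n = 3). AC068282.1, whose start lies 665 bases from the opposite-strand start of the kinase gene MAP3K2, measured 0.164, 0.113 and 0.133 CPM under DMSO and 1.21, 1.36 and 1.09 CPM after auxin. Its log2 fold change was 3.14 (SE 0.20, adjusted p = 2.24e-05), whereas MAP3K2 had a log2 fold change of -0.02 (adjusted p = 0.836).

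Chromosome 8 carried the next pair, both with 1 exon. AC012213.2, 20.9 kb downstream of DCAF13, measured 0.35, 0.433 and 0.335 CPM under DMSO and 2.1, 1.98 and 1.88 CPM after auxin. AP003469.4, 8.25 kb downstream of ZNF706, measured 1.52, 1.63 and 1.26 CPM under DMSO and 6.97, 6.62 and 6.18 CPM after auxin. In both genes the groups were separate, with log2 fold changes of 2.41 (SE 0.15, adjusted p = 2.24e-05) and 2.16 (SE 0.13, adjusted p = 1.87e-05). Their upstream genes changed little by comparison: DCAF13 had a log2 fold change of 0.38 and ZNF706 one of 0.11, the latter not called (adjusted p = 0.125).

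HAR1B (chr20:63095493-63102319, minus strand, 3 exons) lies at a region of unusually fast sequence change in the human lineage and is paired head to head with HAR1A, also a lincRNA gene of this set. HAR1B measured 0.325, 0.511 and 0.497 CPM under DMSO and 1.64, 1.74 and 1.78 CPM after auxin. HAR1A measured 0.0864, 0.16 and 0.118 CPM under DMSO and 0.0418, 0.0167 and 0.0181 CPM after auxin. The partners thus moved in opposite directions, with log2 fold changes of 1.96 (SE 0.20, adjusted p = 1.86e-04) and -2.06 (SE 0.44, adjusted p = 0.00618). Their exons overlap by 115 bases on opposite strands, and HAR1A rested on 4 to 52 counts per library. The other increases of the largest 10 at that level were LINC01119 (log2 fold change 2.11), LINC01910 (1.88), Z82186.1 (1.81), AC021218.1 (1.74) and PSMG3-AS1 (1.74), all without overlap between the groups. PSMG3-AS1 starts 932 bases from PSMG3, a gene for a proteasome assembly chaperone, and measured 1.62, 1.34 and 1.34 CPM under DMSO and 5.64, 4.35 and 4.38 CPM after auxin, while PSMG3 was not called (log2 fold change 0.11, adjusted p = 0.388).

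**Figure D1:**
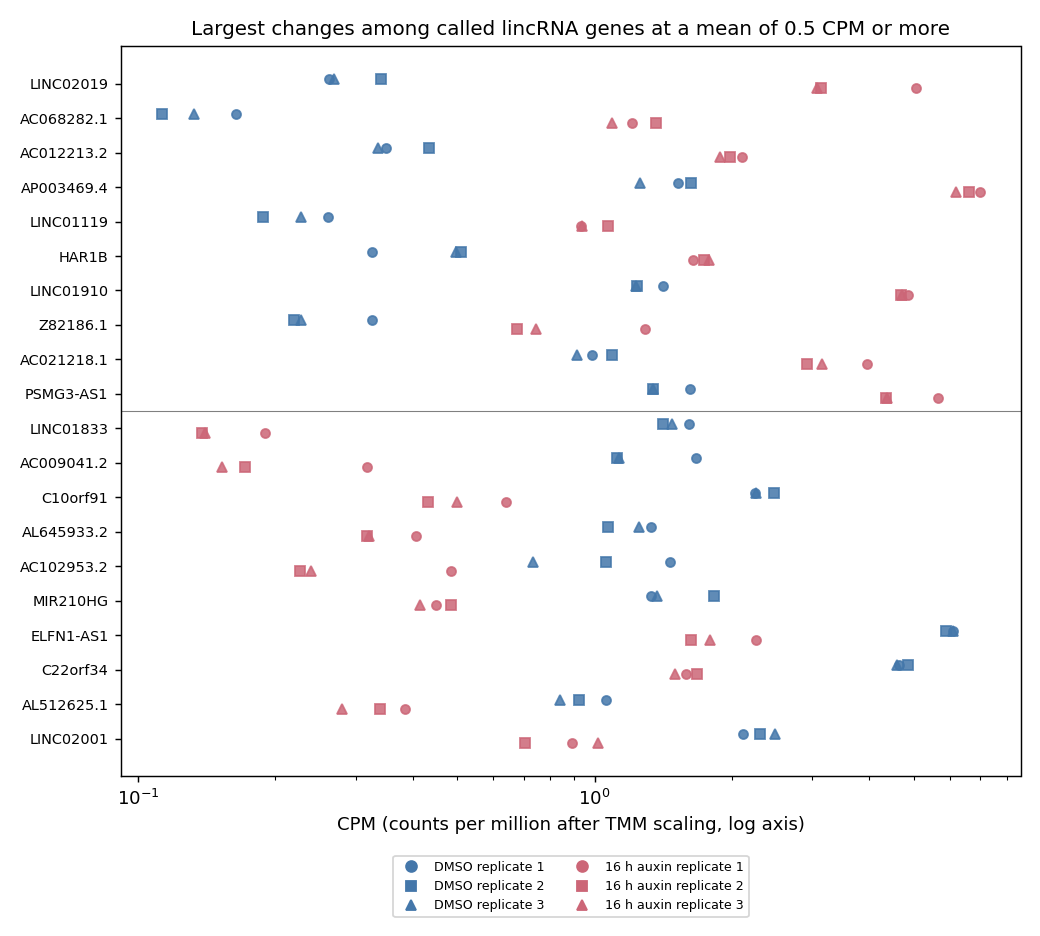
CPM of the 10 lincRNA genes with the largest increases (above the grey line) and the 10 with the largest decreases (below it) among called genes with a mean of at least 0.5 CPM, on a log axis, with 1 point per library, colour for treatment and shape for replicate number. In each of the 20 genes the 3 auxin libraries lie on 1 side of the 3 DMSO libraries.

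The largest decrease, at a mean of at least 0.5 CPM, was in LINC01833, a 3-exon gene on the minus strand of chromosome 2 (chr2:44921077-44939199), which lies next to SIX3, a transcription factor gene of forebrain and eye development. LINC01833 measured 1.61, 1.41 and 1.48 CPM under DMSO and 0.19, 0.138 and 0.14 CPM after auxin, which is -3.24 on the log2 scale (SE 0.19, adjusted p = 1.54e-05). The lincRNA gene SIX3-AS1 ends 955 bases upstream of it and was also lower, from 0.153 ± 0.0241 to 0.0377 ± 0.00745 CPM (SD, n = 3), and SIX3 itself had a log2 fold change of -1.77 (adjusted p = 9.95e-05). AL645933.2, 4289 bases from the opposite-strand start of MICA, a stress-induced ligand of natural killer cells, measured 1.33, 1.07 and 1.25 CPM under DMSO and 0.407, 0.318 and 0.321 CPM after auxin. MICA was lower as well, with a log2 fold change of -1.21 against -1.80 for AL645933.2. AC009041.2 changed by -2.57 on the log2 scale (SE 0.32, adjusted p = 5.21e-04) and starts 212 bases from SOX8, a transcription factor gene that had a log2 fold change of 1.07 (adjusted p = 4.26e-04). It shares 174 exonic bases on the same strand with LMF1, which had a log2 fold change of -1.38, so reads over that stretch could have been assigned to either gene.

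MIR210HG (chr11:565660-568457, minus strand, 2 exons), the host of miR-210, a microRNA known for its induction in hypoxia, measured 1.33, 1.83 and 1.37 CPM under DMSO and 0.45, 0.485 and 0.415 CPM after auxin. Its log2 fold change was -1.74 (SE 0.18, adjusted p = 1.79e-04), and IRF7, the nearest upstream gene on its strand, ending 44.1 kb away, had one of -1.53 (adjusted p = 0.00258). PHRF1, whose opposite-strand start lies 8029 bases from that of MIR210HG, had one of 0.19 (adjusted p = 0.033). ELFN1-AS1, known from colorectal and other tumours, measured 6.1, 5.87 and 6.08 CPM under DMSO and 2.26, 1.63 and 1.79 CPM after auxin (log2 fold change -1.66, SE 0.14, adjusted p = 7.75e-05). On chromosome 7, AC102953.2 (from 1464497), PSMG3-AS1 (from 1570073) and ELFN1-AS1 (from 1738630) follow each other along GRCh38, with ELFN1-AS1 and AC102953.2 lower and PSMG3-AS1 higher. ELFN1, on the opposite strand to ELFN1-AS1, was higher, with a log2 fold change of 1.57 (adjusted p = 3.80e-05). C22orf34 measured 4.64, 4.86 and 4.59 CPM under DMSO and 1.59, 1.68 and 1.5 CPM after auxin, which is -1.56 on the log2 scale (SE 0.10). C10orf91, AL512625.1 and LINC02001 completed the largest 10 at that level, at -2.14, -1.48 and -1.40. Below 0.5 CPM another 26 called genes fell by more than the last of these, the furthest being LINC01273 (-3.44, SE 0.43, adjusted p = 4.74e-04) at a mean of 0.105 CPM. Likewise 49 called genes below 0.5 CPM rose by more than the last of the 10 increases, the furthest being LINC01510 (3.62, SE 0.34, adjusted p = 1.32e-04) at 0.219 CPM. Both were picked after their values were seen. LINC02001 was kept under its GENCODE 29 symbol, although the current-symbol table lists it as SNHG30, a name of the family that was left out.

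Increases were more frequent among lincRNA genes with more exons. Exon number is that of the annotated transcript with most exons. Of the single-exon genes, 82 of 466 were higher (17.6%), against 63 of 277 with 2 exons (22.7%), 109 of 337 with 3 to 4 exons (32.3%) and 72 of 201 with 5 or more (35.8%). Decreases showed no such order, at 8.15%, 14.1%, 9.5% and 9.45%. The median log2 fold change went from 0.07 and 0.12 to 0.27 and 0.33 over the same classes. This is not particular to lincRNA genes over most of the range: of all genes tested with 1, 2, 3 to 4 and 5 or more exons, 15.4%, 24.1%, 29.4% and 27.1% were higher, close to the lincRNA shares up to 4 exons. Their decreases went from 8.71% to 33.6% and their medians were 0.08, 0.12, 0.11 and -0.02. Single-exon genes of all types had a median of 0.19 CPM, against 3.41 CPM for single-exon protein-coding genes. Among protein-coding genes the order differed: 26.3% of 308 single-exon genes and 27.3% of 11785 genes with 5 or more exons were higher, and decreases went from 17.2% to 35.2%. Across 1281 lincRNA genes, Spearman's rho between exon number and log2 fold change was 0.14, and across 14154 protein-coding genes it was -0.13. The points of each correlation share the same 6 libraries and their scaling, and genes are not independent replicates, so no p is given.

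**Figure D2:**
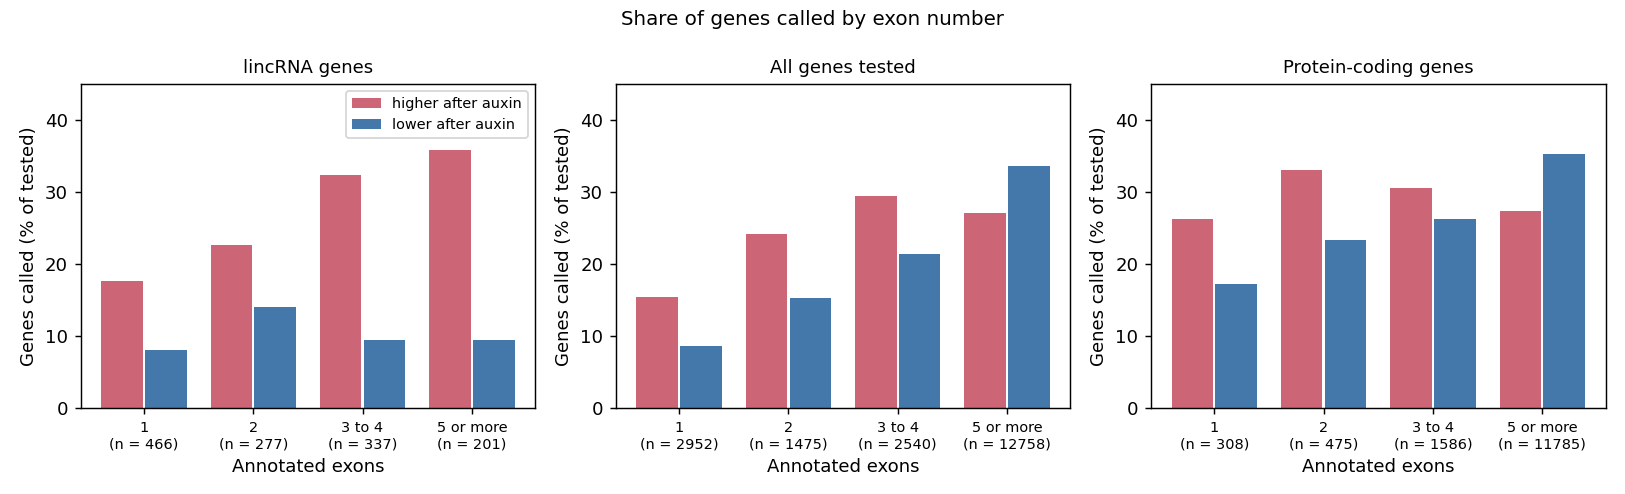
Share of genes called higher or lower after auxin, in percent of the genes tested, by number of annotated exons, for lincRNA genes (left), all genes tested (middle) and protein-coding genes (right). The share called higher goes from 17.6% with 1 exon to 35.8% with 5 or more among lincRNA genes and from 15.4% to 27.1% among all genes, while among protein-coding genes the share called lower goes from 17.2% to 35.2%.

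Level moved with exon number as well, with a median of 0.168 CPM for single-exon genes and 0.341 CPM for those with 5 or more exons (rho 0.12). Within the low band of levels the rho of exon number with change was 0.22, in the middle band 0.16 and in the high band 0.04. In the low band 9.49% of single-exon genes and 26.5% of genes with 5 or more exons were higher, and in the high band 31.2% and 37.8%. The order by exon number was thus steeper among weakly expressed genes and nearly flat among the most abundant. In the 949 genes whose exons overlap no other gene detected in these libraries, on either strand, medians by exon class were 0.08, 0.18, 0.46 and 0.39. The within-pair rho, computed from the libraries of equal replicate number, was 0.11, 0.12 and 0.15. The median of genes with 5 or more exons exceeded that of single-exon genes by 0.26, and by 0.04 on the log2(TPM + 1) scale, where weakly expressed genes are compressed toward 0. With replicates 2 and 3 alone, 18.4% of the single-exon genes and 35.9% of those with 5 or more exons were higher.

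In the summed level the difference was largest for genes with 5 or more exons. Genes with 5 or more exons summed to 489, 504 and 455 CPM under DMSO and 738, 726 and 724 CPM after auxin. Single-exon genes summed to 889, 885 and 816 CPM under DMSO and 1125, 950 and 890 CPM after auxin, where the highest value was that of replicate 1. In the class with 5 or more exons 3 genes carried much of the difference, and they are named because of their values. LINC00941 went from 39.7 to 123 CPM, UCA1 from 55.9 to 103 CPM and FTX from 15.8 to 37.3 CPM. Without these 3 the class went from 371 ± 16.3 to 466 ± 10.8 CPM (SD, n = 3). LINC00941 here is the gene with 6 exons, since a second entry of the same name was too low to be tested. In the single-exon class NORAD measured 430, 372 and 307 CPM under DMSO and 545, 368 and 330 CPM after auxin, so its groups overlapped.

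**Figure D3:**
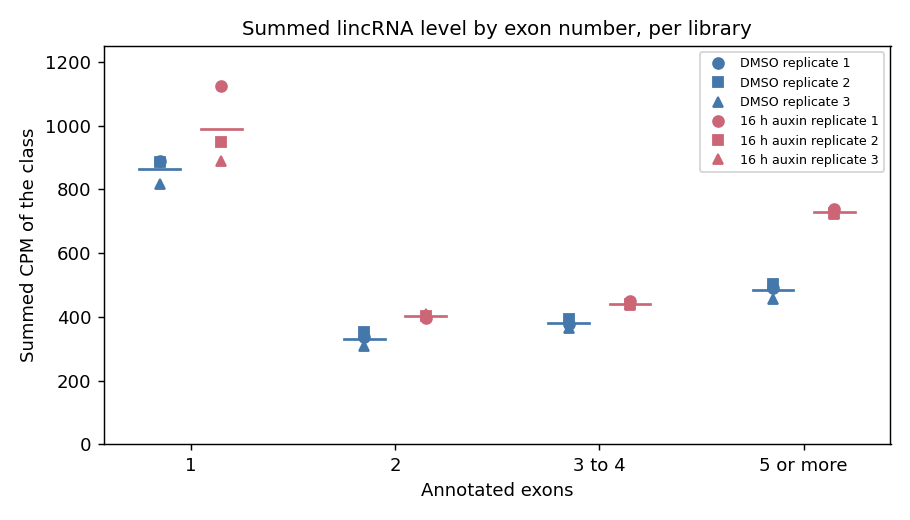
Summed CPM of the lincRNA genes in each class of exon number, with 1 point per library and a line at the mean of each group. With 5 or more exons the auxin libraries lie at 724 to 738 CPM and the DMSO libraries at 455 to 504 CPM, while with 1 exon replicate 1 under auxin stands apart at 1125 CPM.

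The distance to the nearest upstream gene end on the same strand did not order the changes of lincRNA genes. With that end under 5 kb away, 47 of 188 were higher (25%) and 18 lower (9.57%), and with it over 100 kb away 85 of 294 were higher (28.9%) and 25 lower (8.5%). The medians were 0.18 for the 167 genes that overlap a same-strand gene at their start, and 0.19, 0.18, 0.13 and 0.19 for the classes under 5, 5 to 20, 20 to 100 and over 100 kb. Across the 1114 lincRNA genes without such an overlap, rho between distance and change was 0.01. Protein-coding genes differed: under 5 kb 47.2% of 1953 were lower with a median of -0.33, and over 100 kb 24.2% of 3292 were lower with a median of 0.11. The rho was 0.17 over all 16655 genes without an overlap. Single-exon genes made up 54.3% of the lincRNA genes under 5 kb and 28.6% of those over 100 kb. Split by exons, rho with distance was -0.11 for 398 single-exon genes and 0.05 for 716 genes with 2 or more exons. Single-exon genes were higher in 19.6% of cases under 5 kb and 15.5% over 100 kb, and genes with 3 to 4 exons in 28.6% and 39.1%.

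**Figure D4:**
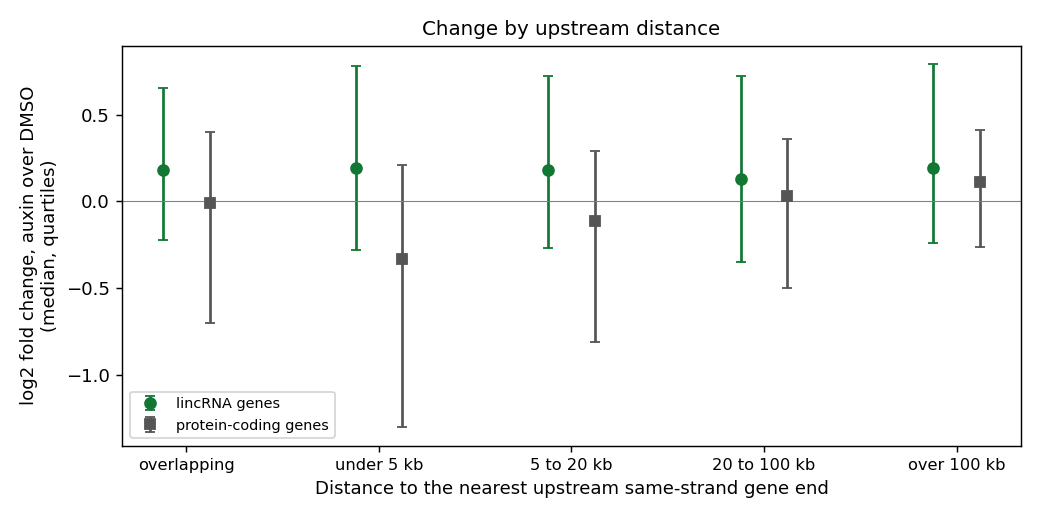
Median log2 fold change (auxin over DMSO) with quartiles, by distance to the nearest upstream same-strand gene end, for lincRNA genes and protein-coding genes. lincRNA medians stay between 0.13 and 0.19 in all 5 classes, while protein-coding medians run from -0.33 under 5 kb to 0.11 over 100 kb.

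What the upstream gene did, in contrast to how far away it was, went along with the change of a close lincRNA gene. In the 159 pairs under 5 kb with both genes tested, 159 different upstream genes among them, rho between the log2 fold changes of both genes was 0.55. It was 0.24 at 5 to 20 kb (180 pairs), 0.26 at 20 to 100 kb (221 pairs) and 0.14 over 100 kb (121 pairs). Over genes of all types the values were 0.33, 0.22, 0.16 and 0.09. Single-exon and multi-exon lincRNA genes under 5 kb had rho of 0.60 (89 pairs) and 0.52 (70 pairs). Both values of a pair come from the same libraries and share their depth and scaling. In 29 of the 159 pairs the upstream gene is itself one of the lincRNA genes described here.

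The calls under 5 kb went the same way. Where the upstream gene under 5 kb away was higher, 21 of 58 lincRNA genes were higher and 0 lower, with a median of 0.47. At an unadjusted p under 0.05 in edgeR 1 of the 58 was lower, as it was by DESeq2, and 8 of the 58 had a log2 fold change below 0. AL732292.2, one of the 21, met the count rule through auxin alone, at 0.00498, 0.0177 and 0.0147 CPM under DMSO. With 10 counts required in every library, rho over the close pairs was 0.56. Where the upstream gene was lower, 3 of 40 lincRNA genes were higher and 9 lower, with a median of -0.24. With an upstream gene that was not called, 15 of 61 were higher and 5 lower, with a median of 0.04. The medians beside higher upstream genes were nearly as large at intermediate distances, 0.39 at 5 to 20 kb (59 genes, 19 higher and 4 lower) and 0.40 at 20 to 100 kb (72 genes, 20 higher and 3 lower), and 0.11 over 100 kb (28 genes, 9 higher and 2 lower). Beside lower upstream genes they were -0.06, -0.09 and -0.09 in those 3 classes, closer to 0 than the -0.24 under 5 kb. There 9 of 47 lincRNA genes were higher and 5 lower, then 7 of 45 and 7, and 7 of 27 and 3. Beside higher upstream genes the share called higher was 36.2% under 5 kb, then 32.2%, 27.8% and 32.1%, so it did not fall steadily with distance.

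**Figure D5:**
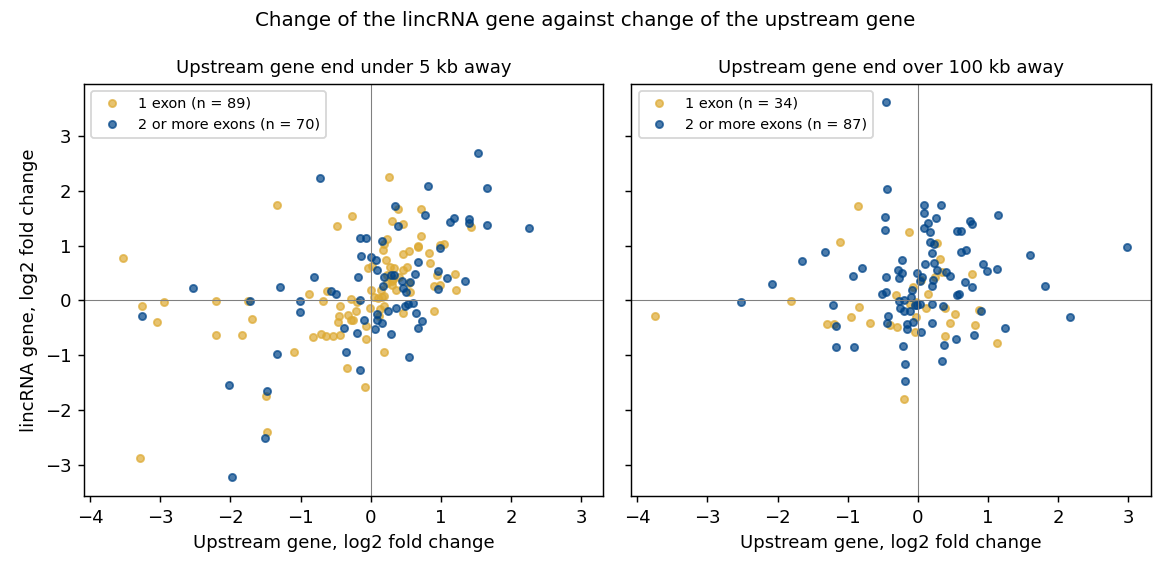
log2 fold change of each lincRNA gene (vertical) against that of its nearest upstream same-strand gene (horizontal), for pairs under 5 kb apart (left, rho 0.55) and over 100 kb apart (right, rho 0.14), coloured by exon number. Under 5 kb the points follow a line from lower left to upper right more closely than over 100 kb.

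Of the 33 close pairs in which both genes were called, 21 were higher together and 9 lower together. Over all genes tested 25.4% were higher and 26.9% lower. The count of pairs was not made for close pairs of all genes, whose rho was 0.33. Whether this agreement is particular to lincRNA genes was therefore not tested. AC102953.2 is a single-exon gene that begins 2755 bases past the end of INTS1, which encodes a subunit of the Integrator complex. It measured 1.46, 1.06 and 0.733 CPM under DMSO and 0.484, 0.226 and 0.239 CPM after auxin, which is -1.75 on the log2 scale (SE 0.38, adjusted p = 0.00657). INTS1 measured 78.2, 63.5 and 65 CPM under DMSO and 26.8, 23.4 and 23 CPM after auxin, so both genes had 3 low auxin libraries, with replicate 1 the highest in each group. AC005840.2 lies 2334 bases past LTBR, the lymphotoxin beta receptor gene, and the pair had log2 fold changes of -2.52 (SE 0.48) and -1.51 (SE 0.10). AC002401.4 lies 3584 bases past ITGA3, an integrin subunit gene, with -2.40 (SE 0.65) beside -1.48 (SE 0.20), and its auxin libraries held at most 0.0209 CPM. AC091057.3, 2397 bases past GOLGA8H, had -2.88 (SE 0.42) beside -3.28 (SE 0.23), but GOLGA8H belongs to a family of near-identical copies whose reads could be assigned to either copy.

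Among the pairs that were higher together, LINC01277 had the largest log2 fold change, 2.69 (SE 0.45, adjusted p = 0.00215), beside 1.53 (SE 0.40) for the lincRNA gene AL023581.2 at 1348 bases, both under 0.1 CPM. OGFRP1, Z83851.1 and Z83851.2 follow each other on chromosome 22, at 1159 and 1136 bases, and had log2 fold changes of 1.13, 1.42 and 1.34. Z83851.1 measured 0.272, 0.206 and 0.339 CPM under DMSO and 0.817, 0.707 and 0.664 CPM after auxin. AL359397.2 lies 1495 bases past the kinase gene CDKL1, with 1.49 (SE 0.22) beside 1.40 (SE 0.07). LINC01963, the most abundant of these, measured 20, 15.6 and 15.3 CPM under DMSO and 37.8, 32.3 and 33.1 CPM after auxin, beside AC012513.3, which ends 3526 bases upstream and had a log2 fold change of 0.99. AL359397.2, LINC01963 and the genes in the next sentences were picked after their values were seen.

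In 3 close pairs the lincRNA gene was higher and the upstream gene lower, and in 0 pairs the reverse. AC005828.4 starts 93 bases past CYB561, a cytochrome b561 gene, and measured 0.0332, 0.0213 and 0.0516 CPM under DMSO and 0.19, 0.146 and 0.158 CPM after auxin, while CYB561 had a log2 fold change of -0.72 (SE 0.08). AL035252.3 measured 0.56, 0.429 and 0.457 CPM under DMSO and 1.51, 1.05 and 1.12 CPM after auxin, beside -0.48 (SE 0.05) for ENTPD6. LINC02012 completes them, 1.55 (SE 0.38) beside -0.27 (SE 0.08) for BDH1. Among the close lincRNA genes with large changes whose upstream gene was not called were AC103746.1, 2690 bases past the nuclear receptor gene NR2F2, with 1.72 (SE 0.29, adjusted p = 0.002), and AC011912.1, 4067 bases past RSL24D1, a gene of ribosome assembly, with 1.68 (SE 0.10, adjusted p = 2.20e-05). NR2F2 had a log2 fold change of 0.35 (adjusted p = 0.0539) and RSL24D1 one of 0.40 (adjusted p = 0.0575).

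A start shared with an opposite-strand gene was also read. Of 377 lincRNA genes whose start lies within 2 kb of an opposite-strand start, 84 were higher (22.3%) and 48 lower (12.7%), with a median of 0.09. Of the other 904, 242 were higher (26.8%) and 80 lower (8.85%), with a median of 0.20. The shares called in either direction were nearly equal, 35% and 35.6%, against 52.3% of all genes tested. The rho between the changes of head-to-head partners was 0.22 over 334 pairs with both tested, and HAR1B with HAR1A and AC009041.2 with SOX8 are pairs with opposite signs.

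Of the lincRNA genes most abundant per length, RMRP stood at 261 ± 35.8 TPM under DMSO and 247 ± 37.6 TPM after auxin (SD, n = 3), followed by NORAD, CYTOR, PVT1 and UCA1. RMRP, the RNA of the RNase MRP enzyme, had a log2 fold change of -0.00 (adjusted p = 0.991), with 1 DMSO library low at 15.1 CPM beside 29.1 and 29.6 CPM. Without that library it was -0.26 (adjusted p = 0.0194). A second RMRP entry covers 264 of its bases, so its assignment is uncertain. NORAD, which binds PUMILIO proteins, was not called (0.17, SE 0.20, adjusted p = 0.536). UCA1, known from bladder and colorectal carcinoma, measured 43.3, 74.4 and 49.8 CPM under DMSO and 89.4, 116 and 105 CPM after auxin, with no overlap between the groups and a change of 0.89 on the log2 scale (SE 0.20, adjusted p = 0.00852). Its exons share 489 bases with LINC01764 on the opposite strand, which had a log2 fold change of 0.75. CYTOR passed narrowly, with 40.7, 35.8 and 38.1 CPM under DMSO and 44.2, 42.8 and 45.3 CPM after auxin (log2 fold change 0.21, SE 0.06, adjusted p = 0.0314). The call of CYTOR was lost without any 1 of DMSO replicates 2 and 3 and the 3 auxin libraries, at adjusted p of 0.0547 to 0.169.

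The neighbourhood of MYC on chromosome 8 held 3 lincRNA genes of the set, 1 of them higher. The share called higher was 25.4% both over all lincRNA genes tested and over all genes tested. PVT1, which lies downstream of MYC and is often gained with it in tumours, measured 21.3, 26.1 and 23.4 CPM under DMSO and 28.9, 30.4 and 34.7 CPM after auxin (log2 fold change 0.41, SE 0.10, adjusted p = 0.0126). MYC, ending 53099 bases upstream, went from 167 ± 5.29 to 403 ± 14.9 CPM (SD, n = 3), a log2 fold change of 1.27. CASC11, which starts 1467 bases from MYC on the opposite strand, and PRNCR1 were not called, at 0.53 (adjusted p = 0.292) and 0.09 (adjusted p = 0.716). The lists of characterised genes were chosen with earlier results of these data known. They are described by counts, medians and values of single genes, and no list was tested as a whole.

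A list of genes linked to colorectal cancer held 19 symbols, and 6 of them were genes described here. Of these 6 genes, 4 were higher and 0 lower, with a median of 0.55. Over all lincRNA genes tested 25.4% were higher and 9.99% lower, and over all genes tested 25.4% and 26.9%. In lists this short a count of 0 lower says little. The list is not complete: ELFN1-AS1, described above, is also known from colorectal tumours, is not on it and was lower (-1.66). For this list and those of p53, MYC and other characterised genes, the count lower was also 0 at an unadjusted p under 0.05 and by DESeq2. LINC00460 measured 6.67, 7.06 and 6.7 CPM under DMSO and 16.8, 17.4 and 18.3 CPM after auxin (log2 fold change 1.36, SE 0.07, adjusted p = 1.22e-05), with the groups far apart. BLACAT1 measured 6.12, 6.21 and 4.35 CPM under DMSO and 12.6, 11.2 and 10.7 CPM after auxin (1.05, SE 0.15, adjusted p = 0.00107), and it shares 346 exonic bases on its strand with LEMD1. CRNDE, raised in many colorectal tumours, was not called at -0.23 (adjusted p = 0.203). LINC01234 was not called without the replicate block (0.18, adjusted p = 0.194) and was with it (0.17, adjusted p = 0.00182). The 4 genes linked to p53 that were tested included 1 higher, LINC-PINT, and 0 lower. LINC-PINT, induced by p53 in mouse and human cells, measured 3.84, 3.65 and 3.17 CPM under DMSO and 7.13, 5.88 and 5.73 CPM after auxin (0.82, SE 0.13, adjusted p = 0.00155). PURPL, another p53 target, measured 0.0947, 0.039 and 0.0405 CPM under DMSO and 0.138, 0.0795 and 0.0858 CPM after auxin, with overlap through DMSO replicate 1. It was not called (0.76, SE 0.43, adjusted p = 0.18), but was with the replicate block (adjusted p = 0.0407) and without DMSO replicate 1 (1.38, adjusted p = 0.0277).

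Of 9 other characterised genes, 5 were higher (55.6%) and 0 lower, with a median of 0.38. Of all lincRNA genes tested 25.4% were higher and 9.99% lower, and of all genes tested 25.4% and 26.9%. FTX and JPX lie in the X inactivation centre and are known as activators of XIST in female cells. FTX measured 17.3, 15.9 and 14.1 CPM under DMSO and 40.1, 36.8 and 35 CPM after auxin, which is 1.24 on the log2 scale (SE 0.09, adjusted p = 4.69e-05). JPX measured 14.6, 15.1 and 14.4 CPM under DMSO and 19, 19.5 and 19.1 CPM after auxin (0.38, SE 0.06, adjusted p = 0.00162). On the deposited TPM values JPX stood at 11.6 ± 1.38 and 11.4 ± 0.557 TPM (SD, n = 3), with a difference of -0.02 on the log2(TPM + 1) scale (adjusted p = 0.952). JPX and FTX share 10580 exonic bases on opposite strands, and whether the counting used strand is not given in the sources used here. LINC00467 measured 8.07, 7.96 and 7.97 CPM under DMSO and 13.5, 13.9 and 13.9 CPM after auxin (0.78, SE 0.07), and LINC00839 and LINC00662 were called higher at 0.73 and 0.44. TERC, the telomerase RNA, was not called at 0.20 (adjusted p = 0.288), and RF00024 covers 438 of its bases on the same strand.

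With limma on the TPM values the calls of JPX, FTX, LINC00467, LINC00839, LINC00662, LINC-PINT, BLACAT1, PVT1, CYTOR, MIR193BHG and MIR4435-2HG were lost, at adjusted p of 0.066 (LINC00467) to 0.953 (JPX). Scaled by library size alone, CYTOR, MIR193BHG and MIR4435-2HG had adjusted p of 0.389, 0.052 and 0.118.

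Among the 14 genes whose symbol marks them as microRNA hosts, 2 were higher (14.3%), 1 was lower (7.14%) and 11 were not called, with a median of 0.11. The shares were 25.4% and 9.99% over all lincRNA genes tested, and 25.4% and 26.9% over all genes tested. The lower one was MIR210HG, described above. MIR193BHG, host of miR-193b and miR-365a, measured 1.01, 0.894 and 0.788 CPM under DMSO and 1.45, 1.33 and 1.35 CPM after auxin (0.61, SE 0.14, adjusted p = 0.00896). MIR4435-2HG measured 30.8, 28.6 and 29.6 CPM under DMSO and 36.4, 34.3 and 39 CPM after auxin (0.30, SE 0.07, adjusted p = 0.00818), a call that was lost without DMSO replicate 2 (adjusted p = 0.0516). MIR4435-2HG and CYTOR contain MIR4435-2 and MIR4435-1, which have the same mature sequence. Whether reads of these host genes could be assigned to either was not tested, so their calls may not be independent. With the replicate block MIR181A1HG (0.53, adjusted p = 0.0014), MIR34AHG (0.29, adjusted p = 0.00857) and MIR29B2CHG (-0.49, adjusted p = 0.00105) passed too, where without it their adjusted p was 0.0621, 0.375 and 0.0667. MIR200CHG, host of the epithelial microRNAs miR-200c and miR-141, was not called at -0.28 (adjusted p = 0.371), although PTPN6, ending 1930 bases upstream, went from 13.3 ± 1.16 to 1.37 ± 0.238 CPM (SD, n = 3).

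By position, 25 lincRNA genes contain at least 1 of 50 RefSeq microRNA genes on their strand, and of the 23 tested, 8 were higher and 3 lower, with a median of 0.21. Over all lincRNA genes tested 25.4% were higher and 9.99% lower, with a median of 0.18. Over all genes tested 25.4% were higher and 26.9% lower. The 3 described next were picked after their values were seen. AC016831.6, which contains the genes of miR-29a and miR-29b-1, measured 2.74, 2.13 and 1.88 CPM under DMSO and 4.66, 3.42 and 2.95 CPM after auxin (0.71, SE 0.21, adjusted p = 0.0266). It shares 2010 exonic bases with LINC-PINT on the same strand, so their counts are not independent. AC048341.1, which contains let-7i and begins 2273 bases past MON2, measured 1.2, 0.961 and 0.81 CPM under DMSO and 2.11, 1.39 and 1.45 CPM after auxin (0.74, SE 0.22, adjusted p = 0.0271). DIO3OS, at the imprinted DIO3 locus, was lower, at 0.233, 0.16 and 0.21 CPM under DMSO and 0.0526, 0.046 and 0.0406 CPM after auxin (-2.08, SE 0.26, adjusted p = 5.09e-04).

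A RefSeq promoter on the same chromosome and strand was matched by symbol for 425 of the 1365 lincRNA genes, and 333 of these lie within 500 bases of the GENCODE start. CpG-rich windows, with over 50% GC and an observed over expected CpG ratio above 0.6, made up 62.6% of the 99 promoters of genes called higher, 66.7% of the 45 of genes called lower and 57.3% of the 178 of genes not called. Over all 35116 RefSeq promoters the share was 46.8%. CCAAT, on either strand, stood in 31.3% of the promoters of genes called higher, 48.9% of those called lower and 34.8% of those not called, against 34.6% of all. GGGCGG stood in 56.6%, 64.4% and 53.4%, against 45% of all. The windows shown for MIR210HG and ELFN1-AS1 hold both motifs. Among other named genes called lower, LINC02001 held both as well, whereas LINC01833 held GGGCGG without CCAAT. The windows shown therefore do not stand for these shares. These shares rest on genes with a named RefSeq entry, most of them not single-exon genes, of which 55 were matched.

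Across the transcripts, GC content had a rho of -0.07 with the change of 1281 lincRNA genes and of -0.35 with that of 14145 protein-coding genes. In 3 even bands of GC content the shares called higher with 1, 2, 3 to 4 and 5 or more exons were 20.8%, 25.7%, 30.8% and 37.5% in the low band and 15.5%, 29.8%, 35.4% and 39.8% in the middle band. In the high band they were 14.9%, 15%, 30.2% and 25%, so the order did not hold for all classes there, and genes with 5 or more exons had a median of 0.09. A polyadenylation hexamer, AATAAA or its common variant ATTAAA, stood in the last 50 bases of 74.5% of single-exon lincRNA transcripts and of 48.7%, 49.3% and 49.8% of those with 2, 3 to 4 and 5 or more exons. Among genes called higher, called lower and not called it stood in 56.1%, 63.3% and 58.5%.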

How the data were processed

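RNA-seq gave 3 auxin and 3 DMSO libraries of HCT116; ribosomal RNA was removed and stranded libraries were read from both ends, per the labels' protocols. The submitters' processing notes name bcl2fastq 2.20, STAR, DESeq2 and the builds GRCh38 and hg38. The quantifier and whether it used strand are not given in the sources used here. The authors deposited an expected count and a TPM value for each gene and transcript, with the count's posterior standard deviation beside them, each library in its own table.

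Expected counts were rounded to whole numbers. All 58780 gene identifiers matched GENCODE 29; spike-in and other rows that name no gene, at most 11.127 CPM, stayed out of the fits. Genes passing filterByExpr were fitted with edgeR 4.0.16 (R 4.3.3; TMM factors, quasi-likelihood test, Benjamini-Hochberg over all genes tested, threshold 0.05); CPM values use those factors. The fitting was tested on simulated counts. Replicates differed by 36.8 to 609 times the chi-square per degree of freedom of sampling noise, so none is a repeat deposit. The labels give both groups the same replicate numbers. Deviations from the group means correlated at 0.8, 0.48 and 0.47 within numbers and at -0.65 to 0.49 in other pairs. The highest of the other pairs was thus above the lower same-number values, so these correlations do not settle whether the libraries are paired. The main fit was unpaired, and the replicate block was run as an alternative.

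Exon numbers, distances and overlaps came from the GENCODE 29 annotation. Exonic overlaps were counted only against genes with any count in these libraries. The upstream gene is the nearest gene on the same strand, other than small RNA genes and pseudogenes, that ends before the lincRNA gene starts. Named genes are the 10 largest increases and decreases among called genes at 0.5 CPM or more, the 5 highest by TPM, the called genes under 5 kb from an upstream end with the largest changes (taken both with and without that CPM minimum) and members of the characterised lists. The members and lists were chosen with earlier results of these data known. Alternatives were DESeq2 1.42.0, limma 3.58.1 on log2(TPM + 1) and log2(TPM + 0.1), upper-quartile, RLE and library-size scaling, other low-count filters, the replicate block, leaving out each library, other definitions of exon number and upstream gene, and, added after the data were seen, replicates 2 and 3 alone and genes without exonic overlap.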

Additional observations from a re-analysis of the deposited data

How the results depend on the processing

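On the TPM values, limma called 133 lincRNA genes higher and 74 lower at a pseudocount of 0.1, and 130 and 72 at 1, against 326 and 128 with edgeR; BLACAT1, FTX, LINC-PINT, LINC00467, LINC00662, LINC00839, MIR193BHG, MIR4435-2HG, PVT1, CYTOR and Z82186.1 lost their calls there, and AC102953.2 did at a pseudocount of 1. JPX had -0.02 on both TPM scales. Asking for 2-fold left 202 and 78. Leaving out 1 library gave 257 to 316 higher and 90 to 162 lower, a lincRNA median of 0.07 to 0.27, rho with exon number of 0.12 to 0.17, the median difference between 5 or more exons and 1 exon 0.24 to 0.31, rho with distance -0.01 to 0.03 and rho with the upstream gene under 5 kb 0.47 to 0.59. The replicate block, which pairs equal numbers, gave 415 higher and 192 lower and rho of 0.14, 0.01 and 0.56 for exons, distance and upstream gene; beside the calls named in the text it changed no other call of a named gene. With 10 counts required in every library, rho with exon number was 0.11, the median difference 0.17 and rho with distance 0.00. On the TPM scales the median difference was 0.17 (pseudocount 0.1) and 0.04 (pseudocount 1), where rho with exon number was 0.11. Counting exons of the transcript with the highest TPM gave a median difference of 0.34. With protein-coding upstream genes alone, rho with distance was 0.06 and with the upstream gene 0.48. In genes without exonic overlap, rho with exon number was 0.18 and with distance 0.00. Where a value moved, the cause was not tested. No called lincRNA gene was called in the opposite direction under any alternative fit run. Depth limits the genes under 0.1 CPM, which rest on few counts per library.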
